A study of Oryctolagus cuniculus with 12 samples.

Results

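Genes of the proteasome were examined in the basilar artery of rabbits, before and after an experimental subarachnoid hemorrhage, which is a bleed into the space around the brain. Members were all genes whose symbol begins with PSMA, PSMB, PSMC, PSMD, PSME, PSMF or PSMG followed by a digit, and 5 of them, PSMB8, PSMB9, PSMB10, PSME1 and PSME2, were kept apart as the interferon-inducible members. The rule found 40 genes with a named probe among 10152 genes named on the array, and 37 of these were tested among 7295 tested genes. Of the 40, PSMC3IP and PSME3IP1 match the symbol pattern but encode proteins that are not subunits, and PSMA8, PSMB11 and PSMC3IP were not tested for lack of signal. The RefSeq gene table lists 50 such symbols. The 10 with no probe named here (PSMA2, PSMA3, PSMA7, PSMC4, PSMC6, PSMD1, PSMD6, PSMD12, PSMD13 and PSMD14) were not analysed here.

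There were 12 single-colour arrays of total RNA, 3 for each of 4 groups. The controls are called normal in the labels and day 0 in the design text, and the other groups were taken on day 3, day 5 and day 7 after the hemorrhage. The labels give no strain, sex, age or genotype and mention no sham procedure. Separate animals are not named either, so the p-values below measure only how far these samples differed, and that spread can be technical. Each level below is a log2 signal minus the 75th percentile of its array, so that 0 is the 75th percentile and a step of 1 is a doubling.

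The proteasome is the protease that degrades proteins tagged with ubiquitin. Its barrel-shaped core has outer rings of alpha subunits and inner rings of beta subunits, of which PSMB5, PSMB6 and PSMB7 carry the catalytic sites. A regulatory particle of ATPases and further subunits caps the core, recognises ubiquitin and unfolds the substrate. Interferon gamma induces PSMB8, PSMB9 and PSMB10, which take the places of PSMB5, PSMB6 and PSMB7 to form the immunoproteasome, and also the activator subunits PSME1 and PSME2. The immunoproteasome is abundant in blood-derived immune cells and helps to make peptides for presentation on major histocompatibility complex class I molecules.

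The probes of the inducible members, of the catalytic subunits they replace and of PSMD2, the sole member with a call, are shown first because every value rests on them. Each is a 60-base probe given in the sense of the messenger RNA, 5′ to 3′. Capitals in PSMD2 and PSME2 mark the 56 bases that all 5 tested probes of that gene share.
PSMB8: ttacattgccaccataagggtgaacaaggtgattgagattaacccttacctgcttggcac
PSMB9: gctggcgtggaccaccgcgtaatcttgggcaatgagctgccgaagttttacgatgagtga
PSMB10: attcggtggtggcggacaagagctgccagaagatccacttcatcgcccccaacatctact
PSMB5: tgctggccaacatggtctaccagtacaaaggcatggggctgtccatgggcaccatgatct
PSMB6: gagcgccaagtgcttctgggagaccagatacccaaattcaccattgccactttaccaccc
PSMB7: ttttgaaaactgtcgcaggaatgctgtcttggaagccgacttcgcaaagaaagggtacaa
PSME1: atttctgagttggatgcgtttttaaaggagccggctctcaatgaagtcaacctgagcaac
PSME2: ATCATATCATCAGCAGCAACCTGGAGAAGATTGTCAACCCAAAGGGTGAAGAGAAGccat
PSMD2: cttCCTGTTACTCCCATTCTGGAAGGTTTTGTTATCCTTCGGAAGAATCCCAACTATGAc

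The array lists positions for its probes without naming the genome build. On those coordinates the PSMB8 probe lies at chr12:23359095-23359308 on the minus strand and the PSMB9 probe at chr12:23377365-23377424 on the plus strand, 18.3 kb apart, with TAP1, the peptide transporter of class I presentation, 14.1 kb from PSMB9. PSMB10 lies at chr5:23501550-23501735 on the minus strand and PSMD2 at chr14:81403665-81403724 on the minus strand. PSME1 (chr17:44184037-44184227, plus strand) and PSME2 (chr17:44190832-44190891, minus strand) lie 6.8 kb apart. The positions of the PSMB8, PSMB10 and PSME1 probes span 214, 186 and 191 bases for 60 bases of probe, so these probes skip genomic sequence in between. The PSMB5 probe lies at chr17:43260938-43260997 on the minus strand and the PSMB6 probe at chr19:12327789-12327848 on the plus strand, and the array lists no position for PSMB7. None of the probes used for the 40 members shared a run of 20 bases with a probe of another gene.

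On day 3, 1 of the 37 tested members, PSMD2, was called higher than in controls and 0 were called lower (limma, Benjamini-Hochberg adjusted p below 0.05 over all tested probes, two-sided), while 4.7% of all tested genes were called higher and 2.08% lower. With the slide as a block, 3 members were called higher on day 3 (PSMD2, PSMB3 and PSMA1), and 6.07% of all genes were called higher in that fit. On day 5 and on day 7, 0 of 37 members were called in limma, where 1.84% and 1.86% of all genes were called higher and 0.219% and 0.576% lower (2.06% and 2.44% of genes in either direction). At an unadjusted p below 0.05, limma counted 12 members higher and 0 lower on day 3, 1 higher and 2 lower on day 5, and 2 higher and 2 lower on day 7. Over all genes that rule took 12.1% higher and 9.81% lower on day 3, 9.03% and 5.8% on day 5, and 10% and 9.46% on day 7. The mean of the 3 days against control gave 0 called members in limma, 8 higher and 2 lower at an unadjusted p below 0.05, against 5.13% of genes called higher, 2.32% called lower (7.44% in all), and 12.9% higher and 11.1% lower without adjustment. With the slide as a block, 2 members were called higher over the 3 days, PSMA1 and PSMB3, and 6.36% of all genes were called higher in that fit.

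The changes on day 3 were small and mostly positive. Of the 37 members, 32 had a positive mean change on day 3, with a median of 0.30, and 48.4% of all tested genes had one, with a median of -0.01. The members of day 5 and day 7 had medians of 0.06 and 0.06, with 20 and 21 positive, and those of all genes were 0.01 and 0.02. Under the 5 scalings tried, the median of the members ranged from 0.25 to 0.37 on day 3, and it lay on both sides of 0 on day 5 (-0.07 to 0.08) and day 7 (-0.01 to 0.12). Without day 3 replicate 3 the day 3 median was 0.19, and without day 5 replicate 3 the day 5 median was -0.06. The 3 day 3 arrays lay above all 3 control arrays for 11 of 37 members and below them for 0, where 13.6% and 12% of all genes did so. PSMC1 is among the 11 with its lowest day 3 array and its highest control both at 2.88. On day 5 the arrays lay above for 3 members and below for 1, against 9.99% and 7.24% of genes. On day 7 they lay above for 5 members and below for 6, against 12% and 11.6% of genes. The members were measured on the same arrays and are not independent of each other.

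**Figure D1:**
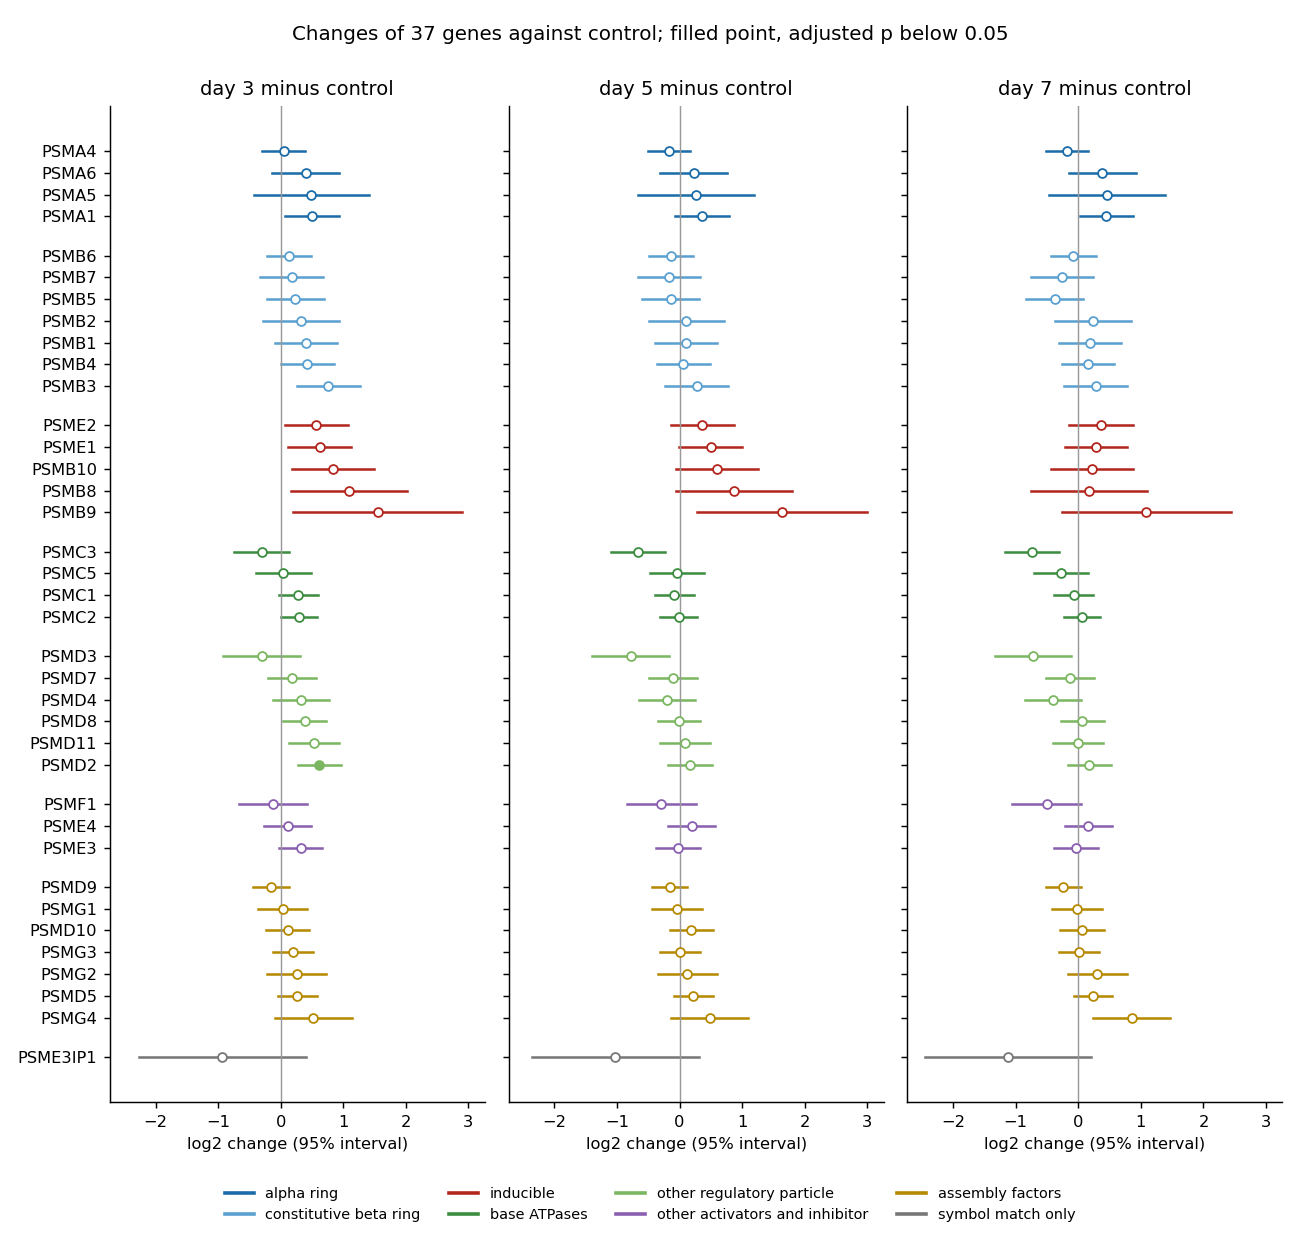
Log2 change of each of the 37 tested members on day 3, day 5 and day 7 against control (3 arrays a group), with the 95% interval of the limma fit, grouped by role. A filled point is a call, and the sole filled point is PSMD2 on day 3, while PSMB9 has the most positive change on each day, with an interval from 1.15-fold to 7.49-fold on day 3.

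The 5 inducible members had mean changes of 0.57 to 1.55 on day 3, those of PSMB9, PSMB8 and PSMB10 being more positive than that of any other member, and none passed the test on any day. Their median change was 0.84 on day 3, 0.61 on day 5 and 0.28 on day 7. Single arrays moved it: it was 0.54 on day 3 without day 3 replicate 3, 0.37 on day 5 without day 5 replicate 3, and on day 7 0.17 without control replicate 2 and 0.47 without control replicate 3. The other 31 subunits and factors had medians of 0.27, -0.01 and 0.01. All 5 changes were positive on each day under all 22 settings tried, and limma made 0 calls, with 5, 1 and 0 of the 5 higher at an unadjusted p below 0.05 on day 3, day 5 and day 7.

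PSMB8 encodes LMP7, the inducible chymotrypsin-like subunit. Its levels were -1.19, -1.61 and -1.15 on the control arrays, -0.19, -0.70 and 0.23 on day 3, -1.54, -0.36 and 0.57 on day 5, and -1.22, -1.0 and -1.22 on day 7. All 3 day 3 arrays were above the controls, day 5 held 1 array within the control range and a pair above it, and day 7 overlapped the controls. The mean was 2.14-fold that of controls on day 3 (log2 change 1.09, SE 0.42, limma adjusted p = 0.155), 1.83-fold on day 5 (adjusted p = 0.381) and 1.12-fold on day 7 (adjusted p = 0.871).

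PSMB9 encodes LMP2, which replaces PSMB6. It was at 1.77, 1.41 and 2.68 in controls, 3.47, 2.90 and 4.16 on day 3, 1.94, 3.95 and 4.90 on day 5, and 2.92, 3.11 and 3.09 on day 7. The day 3 and day 7 arrays all lay above the controls, and on day 5 replicate 1 lay among the controls while replicates 2 and 3 were the highest arrays of their slides. The mean was 2.94-fold on day 3 (95% interval 1.15 to 7.49, limma adjusted p = 0.166), 3.11-fold on day 5 (1.22 to 7.95, adjusted p = 0.236) and 2.12-fold on day 7 (0.83 to 5.41, adjusted p = 0.388).

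PSMB10 encodes MECL1, which replaces PSMB7. Its control levels were 0.32, -0.03 and -0.04, followed by 0.64, 0.61 and 1.51 on day 3, 0.32, 0.38 and 1.37 on day 5, and 0.37, 0.29 and 0.27 on day 7. Replicate 3 was the highest array on day 3 and on day 5, and on day 7 a pair of arrays lay below the highest control. The change was 0.84 on day 3 (SE 0.30, limma adjusted p = 0.124), 0.61 on day 5 (adjusted p = 0.390) and 0.23 on day 7 (adjusted p = 0.735).

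Leaving out day 5 replicate 1 altered these results. Without it PSMB9 was called on day 5, at a log2 change of 2.47 (limma adjusted p = 0.0272), and over the 3 days (1.70, adjusted p = 0.0154). PSMB8 and PSMB9 were called on day 3 (limma adjusted p = 0.0498 and 0.0451), where their changes stayed at 1.09 and 1.55 and the pooled spread was smaller. That array held the lowest day 5 level of PSMB9, so its removal enlarges the day 5 change by construction. The share of all genes called in this fit is not given here, so these calls lack that comparison.

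PSME1 and PSME2 encode PA28 alpha and PA28 beta, which together form the ring-shaped activator of the core. PSME1 was at 1.97, 1.88 and 2.49 in controls, 2.40, 2.83 and 2.99 on day 3, 2.35, 2.63 and 2.86 on day 5, and 2.53, 2.56 and 2.10 on day 7. PSME2 was at 4.13, 4.27 and 4.81 in controls, 4.67, 4.89 and 5.35 on day 3, 4.46, 4.76 and 5.09 on day 5, and 4.79, 4.76 and 4.75 on day 7. In both genes control replicate 3 was the highest control. It lay within the range of each later day in PSME1, and in PSME2 within that of day 3 and day 5 and just above the day 7 arrays. PSME1 had a change of 0.63 on day 3 (SE 0.23, limma adjusted p = 0.133), and PSME2 had 0.57 (SE 0.23, adjusted p = 0.175) and ranged from 0.57 to 0.64 over its 5 overlapping probes.

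Within slides, each of which held 1 array of every group, the 5 inducible members were higher than in the control array for 5 of 5 on all 3 slides on day 3, with medians of 0.54, 0.91 and 1.38. On day 5 they were higher for 3, 5 and 5 (medians 0.16, 0.75 and 1.41) and on day 7 for 4, 5 and 2 (0.56, 0.60 and -0.06). With the slide as a block the limma adjusted p on day 3 was 0.118 for PSMB8, 0.0924 for PSMB9, 0.0901 for PSMB10, 0.110 for PSME1 and 0.0599 for PSME2. Each group had its own fixed position on all 3 slides, and an effect of the position cannot be told apart from the group.

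**Figure D2:**
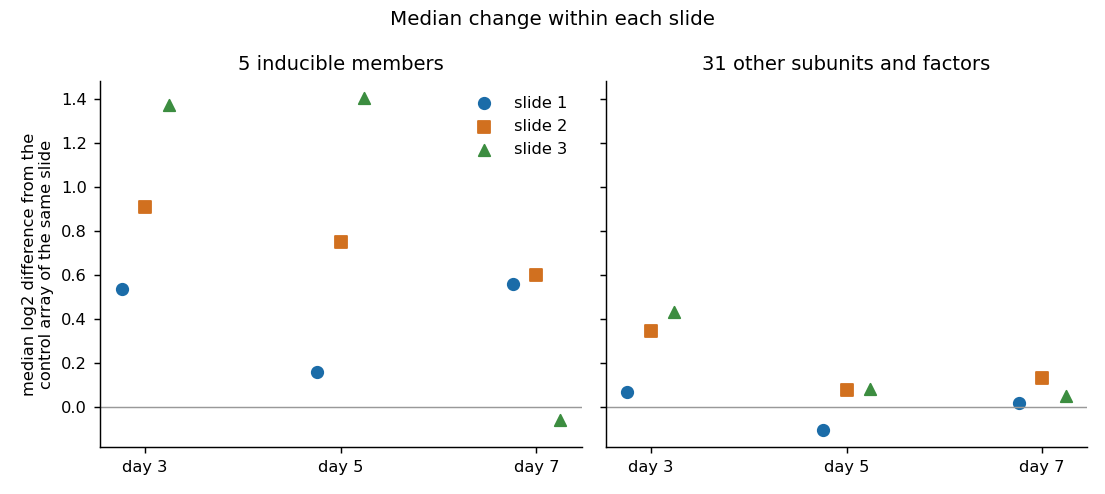
Median log2 difference from the control array of the same slide, for the 5 inducible members and for the 31 other subunits and factors, by day. The inducible medians lie between 0.54 and 1.38 on day 3, spread from 0.16 to 1.41 on day 5 and reach -0.06 on day 7, while the others stay between -0.10 and 0.43.

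Each inducible beta subunit was also set against the constitutive subunit it replaces, as the change of their difference on the same array, in 9 comparisons. PSMB9 relative to PSMB6 gained 1.43 on day 3 (replicates 1.59, 0.92 and 1.76 against the mean of controls, whose own values were -0.05, -0.51 and 0.56), 1.78 on day 5 (0.21, 2.17 and 2.95) and 1.16 on day 7 (1.08, 1.21 and 1.20). PSMB8 relative to PSMB5 gained 0.86, 1.01 and 0.54, and PSMB10 relative to PSMB7 gained 0.66, 0.77 and 0.49. PSMB10 relative to PSMB7 lay above all controls on every day (0.56, 0.56 and 0.86 on day 3, 0.76, 0.55 and 1.0 on day 5, 0.65, 0.52 and 0.29 on day 7, against 0.11, -0.18 and 0.07), also on day 7 when PSMB10 itself had a change of 0.23. A gain also counts a lower level of the counterpart. The day 7 changes of PSMB5, PSMB6 and PSMB7 were -0.38, -0.08 and -0.26. Those of PSMB8, PSMB9 and PSMB10 were 0.17, 1.08 and 0.23. The PSMB6 probe used had changes of 0.13, -0.14 and -0.08 on the 3 days. The other tested PSMB6 probe, which was dimmer, had -0.07, -0.41 and -0.54, so the gain of PSMB9 over PSMB6 depends on the probe. The two-sided exact permutation test gave p = 0.1 for 6 of the 9 comparisons and 0.2 for the other 3 (0.15 and 0.2 after Benjamini-Hochberg adjustment), and 0.1 is the smallest p that 3 arrays against 3 allow. These pairs were chosen with the levels already seen.

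**Figure D3:**
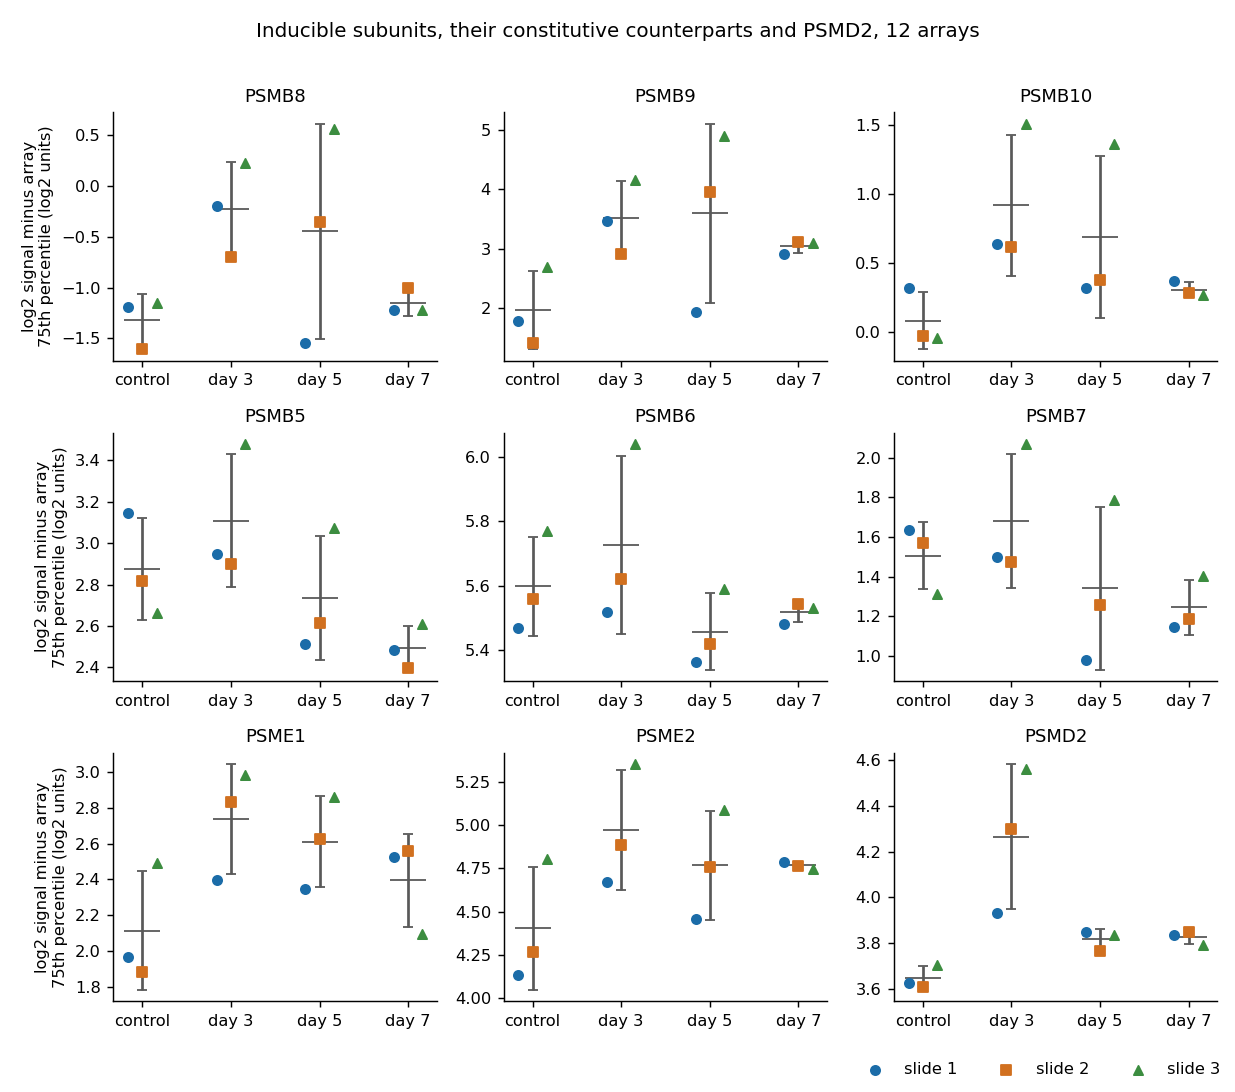
Level of each inducible member (PSMB8, PSMB9, PSMB10, PSME1, PSME2), of the constitutive counterparts PSMB5, PSMB6 and PSMB7 and of PSMD2 on the 12 arrays, as log2 signal minus the 75th percentile of the array, with group mean and SD (n = 3) and 1 symbol per slide. In PSMB8 and PSMB9 day 5 replicate 1 (slide 1) lies at the control level while replicates 2 and 3 lie above it, and PSMD2 is above the controls on all later arrays.

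The constitutive beta subunits had medians of 0.33 on day 3, 0.06 on day 5 and 0.16 on day 7, with 0 of 7 called on any day in limma and 2, 0 and 0 higher at an unadjusted p below 0.05. PSMB3, a structural subunit, had the smallest F test p of the ring, at 2.42, 2.51 and 2.72 in controls, 3.00, 3.18 and 3.76 on day 3, 2.56, 2.73 and 3.19 on day 5, and 2.79, 2.61 and 3.08 on day 7. All day 3 arrays were above the controls and the later days overlapped them. The change on day 3 was 0.76 (SE 0.23, limma adjusted p = 0.0733). With the slide as a block PSMB3 was called on day 3 (adjusted p = 0.0123), at differences of 0.58, 0.67 and 1.04 within the slides.

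PSMB5, the constitutive chymotrypsin-like subunit, was at 3.14, 2.82 and 2.66 in controls, 2.95, 2.90 and 3.48 on day 3, 2.51, 2.61 and 3.07 on day 5, and 2.48, 2.40 and 2.61 on day 7. All 3 day 7 arrays were below the controls, by 0.38 on average (SE 0.21, limma adjusted p = 0.374). PSMB4, a structural subunit, was at 4.14, 4.08 and 4.45 in controls and 4.39, 4.61 and 4.94 on day 3, then at 4.08, 4.18 and 4.60 on day 5 and 4.25, 4.39 and 4.49 on day 7. PSMB7, the trypsin-like subunit, was at 1.64, 1.57 and 1.31 in controls, 1.5, 1.47 and 2.07 on day 3, 0.98, 1.25 and 1.79 on day 5, and 1.15, 1.19 and 1.4 on day 7. The changes of PSMB4 and PSMB7 on day 3 were 0.43 and 0.17 (limma adjusted p = 0.226 and 0.717), and control and day 3 arrays overlapped in both. Among the rest, PSMB1, PSMB2 and PSMB6 had changes between 0.13 and 0.40 on day 3, with no call.

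Of 8 alpha subunits, which form the gated outer rings, 5 had a named probe and 4 were tested. PSMA1 was at 2.40, 2.49 and 2.74 in controls, 2.87, 3.07 and 3.19 on day 3, 2.77, 2.78 and 3.15 on day 5, and 2.79, 2.80 and 3.37 on day 7. Each later array was above all the controls, and the changes were 0.50, 0.36 and 0.45 (limma adjusted p = 0.157, 0.445 and 0.258). With the slide as a block PSMA1 was called on day 3 (adjusted p = 0.0386) and over the 3 days (adjusted p = 0.0293). PSMA6 was at 4.34, 4.28 and 4.75 in controls, 4.63, 4.82 and 5.12 on day 3, 4.42, 4.47 and 5.18 on day 5, and 4.60, 4.75 and 5.18 on day 7. PSMA5 was at 2.06, 1.46 and 2.79 in controls, 2.49, 2.11 and 3.17 on day 3, 1.69, 2.40 and 3.0 on day 5, and 2.58, 2.06 and 3.04 on day 7. In both genes replicate 3 was the highest array of every group, and each day overlapped the controls. PSMA4 was at -0.08, -0.33 and -0.25 in controls, -0.27, -0.11 and -0.14 on day 3, -0.61, -0.45 and -0.09 on day 5, and -0.41, -0.43 and -0.36 on day 7, all below the controls on day 7. The changes on the 3 days were 0.40, 0.23 and 0.39 for PSMA6, 0.49, 0.26 and 0.46 for PSMA5, and 0.05, -0.16 and -0.18 for PSMA4, with no call. PSMA8, the alpha subunit of germ cells, was above background on 0 of 12 arrays.

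The base of the regulatory particle is a ring of 6 ATPases, 4 of which were tested. PSMC3 was at 0.65, 0.34 and -0.05 in controls, -0.21, -0.01 and 0.25 on day 3, -0.26, -0.52 and -0.26 on day 5, and -0.59, -0.26 and -0.45 on day 7. Its day 5 and day 7 arrays all lay below the controls and day 3 overlapped them. The changes were -0.66 on day 5 (SE 0.20, limma adjusted p = 0.137) and -0.74 on day 7 (SE 0.20, adjusted p = 0.0770). Without control replicate 3, the lowest control, PSMC3 was called lower on day 5 (-0.84, limma adjusted p = 0.0488) and day 7 (-0.92, adjusted p = 0.0245). Removing the lowest control makes a fall larger by construction, so these calls add no evidence. PSMC1 was at 2.88, 2.73 and 2.77 in controls and 2.88, 3.08 and 3.28 on day 3, then 2.70, 2.58 and 2.85 on day 5 and 2.74, 2.68 and 2.73 on day 7. PSMC2 was at 1.76, 1.54 and 1.62 in controls and 1.80, 1.89 and 2.12 on day 3, then 1.59, 1.59 and 1.70 on day 5 and 1.70, 1.68 and 1.70 on day 7. Both lay above the controls on day 3 and overlapped them later. In PSMC1 the lowest day 3 array and the highest control were both at 2.88, so that separation is nominal. PSMC5 was at 1.87, 1.89 and 1.51 in controls, 1.71, 1.92 and 1.77 on day 3, 2.07, 1.76 and 1.33 on day 5, and 1.57, 1.27 and 1.60 on day 7. The changes of PSMC1, PSMC2 and PSMC5 were 0.28, 0.30 and 0.04 on day 3 and between -0.28 and 0.06 later, with no call.

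PSMD2, the subunit that scaffolds the regulatory particle and docks ubiquitin receptors, was the sole called member. Its levels were 3.63, 3.61 and 3.71 in controls, 3.93, 4.30 and 4.56 on day 3, 3.85, 3.77 and 3.83 on day 5, and 3.84, 3.85 and 3.79 on day 7. Every array after the hemorrhage was above every control, and the 3 day 3 arrays were above all others. PSMD2 rose 1.53-fold on day 3 (log2 0.62, SE 0.16, 95% interval 1.21-fold to 1.95-fold, limma adjusted p = 0.0409), with 0.31, 0.69 and 0.86 within the slides. On day 5 and day 7 its changes were 0.17 and 0.18 (adjusted p = 0.694 and 0.595). Its 5 overlapping probes gave 0.59 to 0.66 on day 3, and 4 of them were called. The call ended in 13 of the 21 alternatives (adjusted p from 0.0158 to 0.149 over all of them), among them 10 of the 12 in which 1 array was left out, each except day 3 replicate 1 and day 5 replicate 3. It also ended with quantile normalization (0.0745), with the authors' value table (0.0675) and with no filter on dim probes (0.105).

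The other 5 tested subunits of the regulatory particle had no call. PSMD11, a lid subunit, was at 1.69, 1.62 and 1.72 in controls and 1.76, 2.33 and 2.55 on day 3, then between 1.60 and 1.80 on the 6 later arrays. The day 3 change was 0.54 (SE 0.18, limma adjusted p = 0.110). Without day 3 replicate 1, the array nearest the controls, it was 0.76 and called (limma adjusted p = 0.0178). Leaving out that array enlarges the change by construction, so this call adds no evidence. PSMD4, a ubiquitin receptor, was at 0.83, 0.64 and 0.57 in controls, 0.65, 0.94 and 1.43 on day 3, 0.31, 0.35 and 0.77 on day 5, and 0.28, 0.24 and 0.31 on day 7. Its day 7 arrays lay below the controls by 0.40 (SE 0.20, limma adjusted p = 0.331). PSMD3, a subunit that joins lid and base, was at -1.62, -1.08 and -2.24 in controls, -2.15, -2.12 and -1.58 on day 3, -2.21, -2.75 and -2.33 on day 5, and -2.50, -2.16 and -2.46 on day 7. Control replicate 3 lay among the later arrays, and the changes were -0.78 on day 5 and -0.72 on day 7 (limma adjusted p = 0.207 for both). Without that control PSMD3 was called lower on day 7 (-1.02, limma adjusted p = 0.0420) and over the 3 days (-0.90, adjusted p = 0.0295). It was the lowest control, so its removal enlarges the fall by construction and these calls add no evidence.

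**Figure D4:**
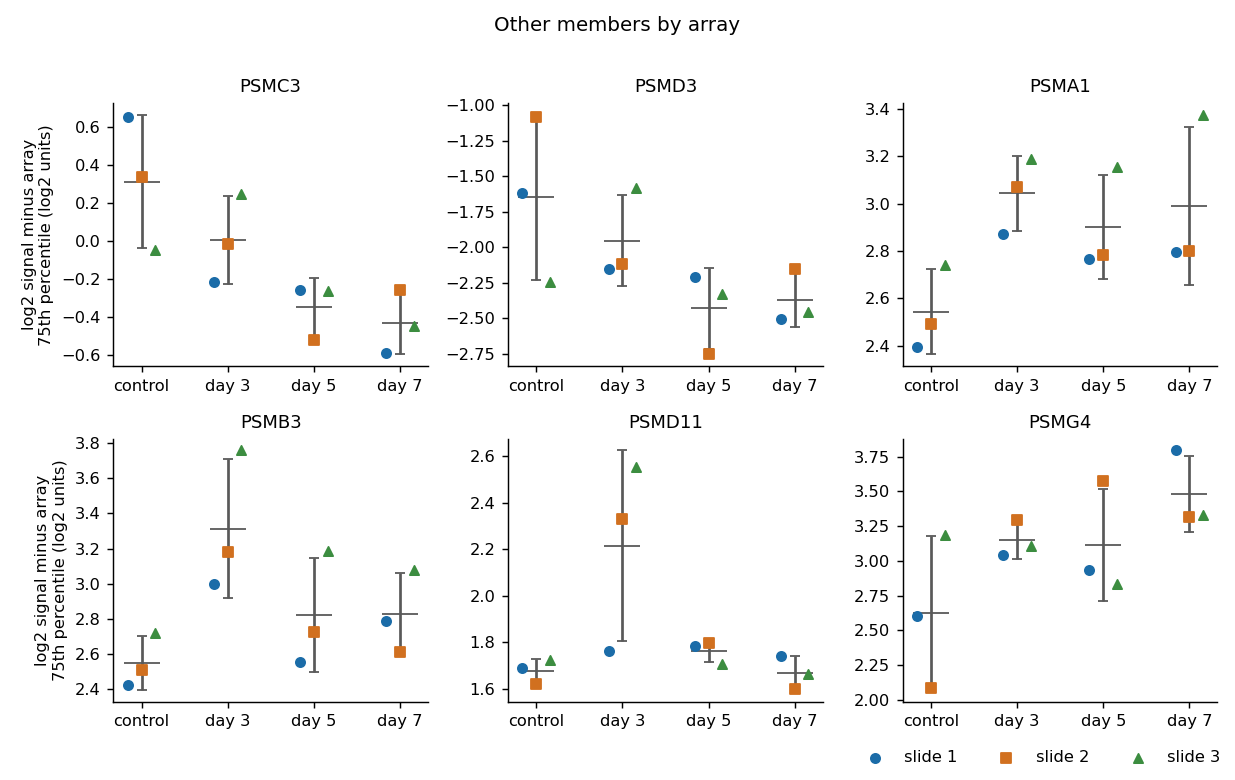
Levels of PSMC3, PSMD3, PSMA1, PSMB3, PSMD11 and PSMG4 on the 12 arrays, as log2 signal minus the 75th percentile of the array, with group mean and SD (n = 3) and 1 symbol per slide. PSMC3 lies below the controls on day 5 and day 7, PSMA1 lies above them on every later array, and PSMD11 is high on day 3 replicates 2 and 3.

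The other activators and the inhibitor had no call. PSME3, the nuclear activator subunit, was at 0.44, 0.30 and 0.65 in controls and 0.61, 0.77 and 0.97 on day 3 (change 0.32, limma adjusted p = 0.274), then at 0.28, 0.36 and 0.66 on day 5 and 0.42, 0.49 and 0.37 on day 7 (changes -0.03 and -0.04). PSMF1, an inhibitor of the core, was at -1.63, -2.02 and -2.57 in controls, -2.17, -2.46 and -1.97 on day 3, -2.68, -2.37 and -2.03 on day 5, and -2.75, -2.56 and -2.43 on day 7, with a change of -0.51 on day 7 (limma adjusted p = 0.314). PSME4, the activator PA200, was at -0.78, -1.0 and -1.21 in controls, -0.83, -0.78 and -1.06 on day 3, -0.57, -0.84 and -1.01 on day 5, and -0.65, -0.87 and -0.99 on day 7. All 3 genes overlapped the controls on every day. PSMB11, the beta subunit of thymic epithelium, was above background on 0 of 12 arrays.

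Of 7 factors that assemble the core or the regulatory particle, 0 were called on any day in limma, with 1 higher on day 7 at an unadjusted p below 0.05. PSMG4, a chaperone of core assembly, was at 2.60, 2.08 and 3.19 in controls, 3.04, 3.30 and 3.11 on day 3, 2.93, 3.57 and 2.83 on day 5, and 3.79, 3.32 and 3.33 on day 7. The day 7 arrays were above all controls, by 0.85 on average (SE 0.28, limma adjusted p = 0.140). Without control replicate 3, the highest control, PSMG4 was called on day 7 (1.14, limma adjusted p = 0.0348) and over the 3 days (0.90, adjusted p = 0.0335). Removing the highest control makes a rise larger by construction, so these calls add no evidence. PSMD5, a chaperone of base assembly, was at -1.48, -1.52 and -1.49 in controls and between -1.38 and -1.06 on the 9 later arrays, all above the controls, with changes of 0.27, 0.22 and 0.24 and no call. The other tested probes of PSMD5 were dimmer and differed. They gave 0.18, 0.35 and -0.08 on day 3, 0.08, 0.18 and -0.02 on day 5, and 0.12, 0.34 and -0.09 on day 7. PSMD9, another base chaperone, was at -0.12, -0.28 and -0.10 in controls, -0.30, -0.43 and -0.22 on day 3, -0.33, -0.42 and -0.21 on day 5, and -0.42, -0.37 and -0.44 on day 7, below the controls on day 7 alone. PSMG2, of core assembly, was at 0.71, 0.60 and 1.29 in controls, 1.07, 1.1 and 1.21 on day 3, 0.95, 0.67 and 1.36 on day 5, and 1.04, 1.13 and 1.34 on day 7. The remaining factors, PSMG1, PSMG3 and PSMD10, had changes between -0.04 and 0.19.

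PSME3IP1 (a partner of PSME3) was at 3.03 on control replicate 2 and between -0.11 and 0.17 on the 11 other arrays. Its changes of -0.94, -1.03 and -1.12 against control lay between -0.12 and 0.07 without that array. It also had 50.1% of its spots well above background, against 58.2% to 64.0% on the others, and 169 outlier spots against 1 to 16.

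Between the days, 0 members were called in limma, as were 0% of all genes for day 5 against day 3 and for day 7 against day 5, and 0.11% for day 7 against day 3 (0.0137% higher and 0.096% lower). At an unadjusted p below 0.05, 6 members were lower on day 5 than on day 3 and 0 higher (3.98% and 3.63% of genes), and 8 lower on day 7 than on day 3 and 0 higher (6.99% and 4.84%). Between day 7 and day 5 there were 0 either way (1.3% and 0.535%). PSMC1, PSMD2, PSMD4 and PSMD11 were lower in both of these comparisons, which share the day 3 arrays. The smallest adjusted p was that of PSMD4 between day 7 and day 3 (-0.73, SE 0.20, limma adjusted p = 0.233).

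The 95% intervals show what 3 arrays a group could resolve. Among the 31 other subunits and factors, the interval lay inside 2-fold in either direction for 28 on day 3, 27 on day 5 and 26 on day 7. Among the 5 inducible members it did so for 0, 1 and 3.

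Of 21 listed partners of the proteasome, 12 were tested and 0 were called on any day in limma, with 2 higher and 1 lower on day 3, 1 higher on day 5, and 2 higher and 2 lower on day 7 at an unadjusted p below 0.05 (medians 0.22, 0.12 and 0.13 on the 3 days). ZFAND5, a ubiquitin-binding protein that stimulates the proteasome, was at 1.73, 1.58 and 1.95 in controls and between 1.96 and 2.43 on the 9 later arrays (change 0.48 on day 3, limma adjusted p = 0.102). VCP, which extracts ubiquitinated proteins for degradation, had a change of 0.39 (adjusted p = 0.144). Of 19 listed genes that supply, conjugate or recycle ubiquitin, 10 were tested and 1 was called (3, 1 and 1 higher at an unadjusted p below 0.05). That gene, UBE2C, makes ubiquitin chains on mitotic proteins. UBE2C rose by a log2 of 3.41 on day 3, 2.31 on day 5 and 1.97 on day 7 (limma adjusted p = 7.91e-05, 0.00193 and 0.00445). Of its controls 1 of 3 was above background, so it passed the filter only through the later groups, where it was high. Of all tested genes, 4.7%, 1.84% and 1.86% were called higher on the 3 days. With the slide as a block UBE2L3 and UCHL3 were also called on day 3 (adjusted p = 0.0490 and 0.0449). Normexp background correction gave lower changes for UBE2C: 1.37 on day 3, 0.91 on day 5 and 0.59 on day 7. Its day 7 call ended under that correction (adjusted p = 0.131). The 6 tested markers of dividing cells were called higher on day 3, with a summed signal of 0.71 to 1.45 times the 75th percentile in controls and 4.18 to 6.56 on day 3, and their part in the result was not tested.

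Of 15 listed genes of class I antigen presentation, 6 were tested, all 6 had positive changes on every day, and 0 were called in limma, with 3, 2 and 0 higher at an unadjusted p below 0.05 (medians 0.54, 0.33 and 0.27). TAP1 was at -2.0, -3.09 and -2.29 in controls, -1.61, -1.96 and -0.79 on day 3, -2.32, -1.16 and -0.38 on day 5, and -2.22, -1.71 and -2.36 on day 7. As in PSMB8 and PSMB9, day 5 replicate 1 was at the control level and day 5 replicate 3 was the highest array. The changes of TAP1 were 1.01, 1.17 and 0.36 (limma adjusted p = 0.239, 0.268 and 0.728), and 2 of its 3 control arrays were above background. LAP3, a peptidase that interferon gamma induces, had a change of 0.50 on day 3 (adjusted p = 0.101).

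Of 40 listed interferon response genes, 15 were tested and 8 were called higher on day 3, 4 on day 5 and 4 on day 7. None was called lower, and the medians were 1.33, 1.38 and 1.22. Of all tested genes, 4.7%, 1.84% and 1.86% were called higher on these days. RIGI was at -0.83, -0.59 and -0.93 in controls, 0.84, 1.71 and 0.98 on day 3, 0.82, 0.99 and 0.99 on day 5, and 0.74, 0.81 and 0.89 on day 7, above every control on each later array. RIGI and IFIH1, sensors of viral RNA, rose on all 3 days, by 1.96, 1.71 and 1.59 and by 1.37, 1.21 and 1.23 (limma adjusted p = 0.0204 or less). The calls of RIGI held in all 21 alternatives, and those of IFIH1 on day 5 and day 7 each ended in 5, among them without control replicate 1 or 2. Other counted calls were less stable: those of IFIT3 and OASL on day 7 ended in 13 and 10 of 20 alternatives, and those of USP18 on day 3 and XAF1 on day 5 in 13 and 9 of 21. Among the called genes, OASL and XAF1 were above background on 1 of 3 control arrays and IFIT3 on 2 of 3. They passed the filter only through the later groups, where they were high. Their calls, their part in the medians and the lack of lower calls among them are thus partly set by the filter. Over the alternatives the day 3 changes of OASL, XAF1 and IFIT3 were as low as 0.64, 1.01 and 0.79. IFNG, which encodes interferon gamma, was not among the genes tested.

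**Figure D5:**
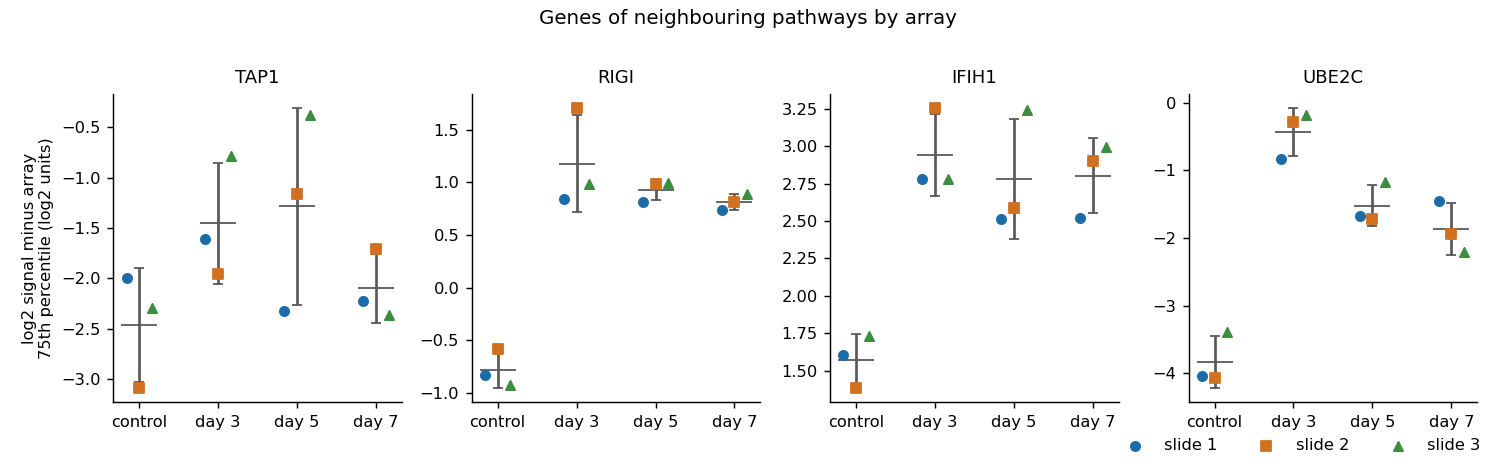
Levels of TAP1, RIGI, IFIH1 and UBE2C on the 12 arrays, as log2 signal minus the 75th percentile of the array, with group mean and SD (n = 3) and 1 symbol per slide. RIGI, IFIH1 and UBE2C lie above the controls on every later array, while TAP1 overlaps them on day 5 and day 7.

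Markers of macrophages and of leukocytes in general were higher after the hemorrhage. The 6 measured macrophage markers of 15 listed had a summed signal of 6.29 to 9.96 times the 75th percentile in the controls. Their sum was 19.3 to 23.3 on the day 3 arrays, 22.7 to 28.5 at day 5 and 19.8 to 24.6 at day 7. On each day 4 of the 6 were called higher, where 4.7%, 1.84% and 1.86% of all tested genes were on the 3 days. The 4 measured markers shared by leukocytes, of 6 listed, summed to 4.09 to 6.27 in controls, 10.6, 11.2 and 16.7 on day 3, 9.97, 10.4 and 14.6 on day 5, and 10.7, 8.84 and 9.10 on day 7, with 3, 3 and 1 called higher. The 12 measured T and NK cell markers of 15 listed summed to 1.76, 1.88 and 1.96 in controls, 2.74, 1.91 and 4.82 on day 3, 1.43, 2.14 and 5.13 on day 5, and 1.54, 2.03 and 2.04 on day 7, and 0 of the 7 tested were called on any day in limma (at an unadjusted p below 0.05, 3 higher on day 3 and 1 lower on day 7). The sums of T and NK cell markers and of the shared leukocyte markers were highest on replicate 3 of day 3 and day 5, the arrays on which PSMB8, PSMB9 and PSMB10 were highest. The median deviation of the inducible members from their means was 1.01 and 0.87 on these arrays. That of the 31 other subunits and factors was also highest there but smaller, at 0.41 and 0.13. Their value on day 5 replicate 3 was close to the 0.11 of day 3 replicate 2. The 4 measured erythroid markers of 6 listed summed to 104 to 162 in controls, 63.2, 111 and 353 on day 3, 253, 172 and 469 on day 5, and 363, 305 and 382 on day 7, so that replicate 3 was highest on each of the 3 days. None of the 3 tested was called in limma, with 2 higher on day 7 at an unadjusted p below 0.05. The 4 measured neutrophil markers of 8 listed summed to 1.58 to 2.91 in controls and 1.52 to 6.51 later, with 0 called in limma and 0 at an unadjusted p below 0.05 on any day. The 4 measured B cell markers of 8 listed summed to 0.65 to 0.88 in controls and 0.66 to 0.97 later, with 1 of 2 tested called on day 3. The 9 measured smooth muscle markers summed to 725 to 833 in controls and 493 to 710 later, and GFAP and AQP4, markers of astrocytes, were above background on no array. The part of these cells in the results was not tested, and in whole artery more cells of a type and more RNA per cell cannot be told apart.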

How the data were processed

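The members, gene lists and tests were chosen with earlier results of these data known. RNA was labelled with Cy3, per the labels. Agilent Feature Extraction 9.5.1.1 produced the deposited scanner files, per the submitters' processing notes. Their processed signal is an intensity from which background was removed, per the file headers, and the deposited mean and background signals are a raw intensity. Deposited flags for signal above background, outliers and saturation are of another kind, 0 or 1 for a spot. A value table by the authors, an intensity with a median of 27.0 in every column, served as an alternative, and its scaling is not given in the sources used here.

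Control spots were left out and outlier spots set to missing. Log2 processed signals minus the 75th percentile of the array (a signal of 127 to 191) were averaged over the spots of each probe. No spot was saturated. The test took the 26434 of 43623 probes that were well above background on the 3 arrays of any group. Identifiers of the array were matched to a RefSeq gene list (assembly mOryCun1.1, for names only), which gave 22120 probes a single gene, 257 several and 21246 no name. The tested probe with the highest mean stands for its gene. Probes of the same member had day 3 changes of the same sign, except in PSMB6 and PSMD5.

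All comparisons came from 1 limma fit (version 3.58.1, R 4.3.3, the package data.table at 1.17.8), two-sided, which was tested on simulated data. Array values are given for the 5 inducible members and for up to 4 genes of each group with the smallest F test p. Arrays with the same replicate number shared a slide, as the file headers show. Their deviations from the group means had a median correlation of 0.108 (-0.153 to 0.387, over 0.1 in 10 of 18 pairs). For arrays of other groups with a different number the median was -0.0410. The number was not taken as a pairing in the main fit, so differences between slides stay in its spread. The slide was a block in an alternative. The number of arrays limits the precision. A search for promoter motifs was not run, since no promoter sequences were used here.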

Additional observations from a re-analysis of the deposited data

How the results depend on the processing

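Alternatives were 9 other settings and 12 fits that each left out 1 array. Of the 37 members, 1 was called higher on day 3, against 0 with quantile normalization, the authors' value table or no filter on dim probes, 3 with the replicate block, and 0 to 2 when 1 array was left out. Members called higher on day 5 and on day 7 numbered 0, and 0 to 1 when 1 array was left out. Over the 3 days the number called higher was 0, and 2 with the replicate block and 0 to 1 without 1 array. Members called lower on day 5, on day 7 and over the 3 days numbered 0. With array weights these were 2, 1 and 1, and without 1 array 0 to 1, 0 to 2 and 0 to 2, in each case PSMC3 or PSMD3 and, among the fits that left out an array, without control replicate 3. Of all calls made with array weights, 71.5% were higher on day 5, 64.1% on day 7 and 65.1% over the 3 days. The main fit had 87.6%, 81.8% and 70.6%. Shares of all genes called are given here only for the main fit and in part for the block, so the other counts lack that comparison. Inducible members called higher numbered 0, with 0 to 2 on day 3 and 0 to 1 on day 5 without 1 array, the change coming without day 5 replicate 1. Between day 5 and day 3, 2 members were called with array weights and 0 otherwise. The cause of these differences was not tested. The replicate block changed no other count of called members, and PSMD2 kept its direction on day 3 in all 21 alternatives. PSMD7 had 0.18 on day 3 and -0.03 with quantile normalization or the authors' value table, without a call in any of these. After normexp background correction the day 5 median of the members was -0.07 in place of 0.06. Every tested member was well above background on all 12 arrays. With 3 arrays a group, the day 3 intervals of the inducible members all included changes above 2-fold.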
